A study of Homo sapiens with 18 samples.

Results

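The genes described here are 46 known transcriptional targets of the tumour suppressor p53, followed gene by gene in human U2OS osteosarcoma cells that were exposed to cytarabine. They were picked by gene symbol from a list that was chosen with earlier results of these data known. Of the 46, 45 had a row in the deposited table of 25296 genes. SPATA18 was not analysed here. All 45 passed the filter on low counts and were among the 18226 genes tested. U2OS is an established osteosarcoma line, and the 3 lines compared were derived from it by retroviral overexpression. The EV line carries the empty vector MigR1, the WT line wild-type DNMT3A and the MUT line a mutant DNMT3A, which the series text names R882C and the sample labels R882H. DNMT3A is a de novo DNA methyltransferase. Each line was sampled untreated and 24 h after addition of 10 µM cytarabine (Ara-C), a nucleoside drug that is incorporated during replication and stalls it. The series text describes the control cells as given vehicle, whereas the sample labels call them untreated. Each of the 6 groups had 3 libraries from cultures that the labels call biological replicates. Whether a line is a clone or a pool, and which promoter drives DNMT3A, is not given in the sources used here.

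The p53 protein is a transcription factor that is kept low by MDM2, a ubiquitin ligase that is itself a p53 target, so that activation of p53 induces its own brake. Damage and replication stress signal through the kinases ATM, ATR, CHEK1 and CHEK2, which stabilise p53. The protein binds a paired decamer in DNA and turns on genes that stop the cell cycle, repair DNA, change metabolism or promote cell death. U2OS cells are known to carry a truncated, overactive form of PPM1D, a phosphatase that dampens p53 signalling.

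Library totals ran from 15.4 to 21.9 M counts. Levels are given as CPM, counts per M counts of the scaled library size, and their SD is over the 3 libraries of a group. DNMT3A was read first to check the labels, and its mean over the untreated libraries went from 26.9 ± 0.662 CPM in EV to 133 ± 5.17 CPM in WT and 456 ± 185 CPM in MUT. The 3 untreated MUT libraries stood apart from each other, with DNMT3A at 499.7, 615 and 254 CPM. The members' log2 CPM had a median SD of 0.204 in that group, against 0.0591 to 0.111 in the other 5 groups. Of the mesenchymal and bone markers, VIM (967 to 2600.0 CPM over the libraries) and SPARC (805 to 1170.0 CPM) were high. RUNX2 lay between 29.6 and 53.2 CPM and COL1A1 between 60.8 and 294 CPM. In untreated cells COL1A1 had a mean of 63.4 CPM in WT, against 177 CPM in EV and 166 CPM in MUT. ALPL lay between 6.27 and 15 CPM, and BGLAP, a late osteoblast marker, reached at most 0.437 CPM. TWIST1 was not analysed here. The log2 fold changes after cytarabine in EV, WT and MUT were -0.90, -0.86 and -0.97 for VIM and 0.01, -0.15 and 0.04 for SPARC. They were 0.45, 0.10 and 0.71 for COL1A1, 0.12, 0.13 and 0.47 for RUNX2, and 0.09, 0.77 and -0.06 for ALPL. Of 8 listed markers of epithelial, blood and endothelial cells 7 had a row, none above 6.37 CPM in any library (CDH5), and 5 were tested. EPCAM reached 4.01 CPM, KRT5 5.01 CPM, PTPRC 1.41 CPM, PECAM1 0.418 CPM and HBB 0.117 CPM, and CD3E was not analysed here. Their summed level was 8.12 to 8.73 CPM in untreated EV and 12.7 to 13.3 CPM in treated EV, 4.13 to 4.32 and 5.71 to 7.20 CPM in WT, and 7.60 to 8.58 and 12.7 to 18 CPM in MUT, so it moved with treatment and line. CDH1, an epithelial cadherin that reached 5.18 CPM, had log2 rises after cytarabine of 1.15 (EV), 1.55 (WT) and 1.67 (MUT) and was at -2.10 in untreated WT and -1.70 in untreated MUT against EV. CDH5, an endothelial cadherin, rose by 1.35 in WT and 1.04 in MUT, and untreated MUT was 2.50 above untreated WT. The part of these low levels in the results on the members was not tested.

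The start sites of some members lie close to a p53 decamer, and these sequences are shown because p53 binding to such elements defines the gene group. RefSeq promoter windows (GRCh38.p14, 250 bases before to 50 after each annotated start) were found for 39 of the 46 symbols. The p53 consensus decamer, which is its own reverse complement and so was searched on both strands at once, occurred in the windows of 7 of these 39 genes (17.949%), against 8.064% of the 27305 genes in the RefSeq table. A pair of decamers with a spacer of at most 13 bases was found in DDB2 alone among the members, and in 10 of the 27305 genes. A match of letters is a description of the window and not a measured binding site, and distal elements, which many p53 targets use, fall outside these windows. The windows of DDB2, the gene with the pair, and of FDXR, whose decamer lies closest to the start on its upstream side, are printed 5′ to 3′ with the decamers in capitals.
DDB2, chr11:47214724-47215023, plus strand: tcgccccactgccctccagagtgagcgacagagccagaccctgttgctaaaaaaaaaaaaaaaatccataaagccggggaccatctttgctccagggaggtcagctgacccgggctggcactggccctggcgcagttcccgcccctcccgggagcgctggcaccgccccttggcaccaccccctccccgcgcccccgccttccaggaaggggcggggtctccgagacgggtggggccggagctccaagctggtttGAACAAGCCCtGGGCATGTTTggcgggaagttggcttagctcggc
FDXR, chr17:74872945-74873244, minus strand: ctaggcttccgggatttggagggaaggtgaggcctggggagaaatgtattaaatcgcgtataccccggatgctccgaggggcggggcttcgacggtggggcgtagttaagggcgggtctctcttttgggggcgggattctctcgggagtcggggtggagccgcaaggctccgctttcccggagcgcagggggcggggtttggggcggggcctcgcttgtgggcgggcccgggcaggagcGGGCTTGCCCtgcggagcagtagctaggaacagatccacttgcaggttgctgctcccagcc
In DDB2 the decamers begin at positions 6 and 17 after the start and are separated by 1 base. The other 5 genes had a single decamer each, beginning 34 bases before the start in AEN, 49 in SESN1, 61 in RAP2B, 132 in PLK2 and 198 in ISCU, and a stretch around each is printed in the same way.
AEN, chr15:88621286-88621335, plus strand: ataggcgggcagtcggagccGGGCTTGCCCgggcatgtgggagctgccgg
SESN1, chr6:109009008-109009057, minus strand: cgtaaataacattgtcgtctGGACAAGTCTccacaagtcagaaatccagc
RAP2B, chr3:153162145-153162194, plus strand: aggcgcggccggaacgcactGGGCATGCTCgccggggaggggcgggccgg
PLK2, chr5:58460189-58460238, minus strand: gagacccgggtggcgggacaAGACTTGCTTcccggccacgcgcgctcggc
ISCU, chr12:108562378-108562427, plus strand: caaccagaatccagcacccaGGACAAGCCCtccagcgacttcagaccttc
These 7 genes did not respond to cytarabine in one way. DDB2, FDXR and SESN1 rose in all 3 lines, PLK2 and RAP2B fell in all 3, and AEN and ISCU passed the test in none, as described by role in the paragraphs that follow.

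Cytarabine raised most of the p53 targets in every line. In EV 26 of the 45 members were higher after cytarabine at an adjusted p under 0.05 (edgeR quasi-likelihood F test with Benjamini-Hochberg adjustment over all tested genes), against 26.1% of all tested genes, and 3 were lower, against 22.9%. In WT 31 members were higher (26.3% of all tested genes) and 3 were lower (22.7%). In MUT 29 members were higher (30.4% of all tested genes) and 4 were lower (25.9%), a count that was 8 without replicate 2 of untreated MUT. The members' median log2 fold change was 0.34 in EV, 0.55 in WT and 0.45 in MUT, where that of all tested genes was 0.05, 0.03 and 0.05. There were 24 members that rose in all 3 lines, which is 53.3% of the members against 18.9% of all tested genes. LIF, PLK2 and RAP2B fell in all 3, which is 6.67% of the members against 16.4% of all tested genes. With 1 library left out, 24 of the 29 calls in EV, 32 of the 34 in WT and 29 of the 33 in MUT held in all 18 fits, and the exceptions were CCNG1, IKBIP, PERP, PIDD1 and RAP2B in EV, PERP and RAP2B in WT, and CCNG1, PERP, PRDM1 and TIGAR in MUT. A further 9 members passed the threshold in no line, 5 rose in 2 lines and 3 in 1 line. Where 3 log2 fold changes are listed for a gene, they stand in the order EV, WT and MUT. SERTAD1 was called in opposite directions, higher in WT and lower in MUT. In RNA from whole cultures a change in every cell and a change in some of the cells cannot be told apart.

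**Figure D1:**
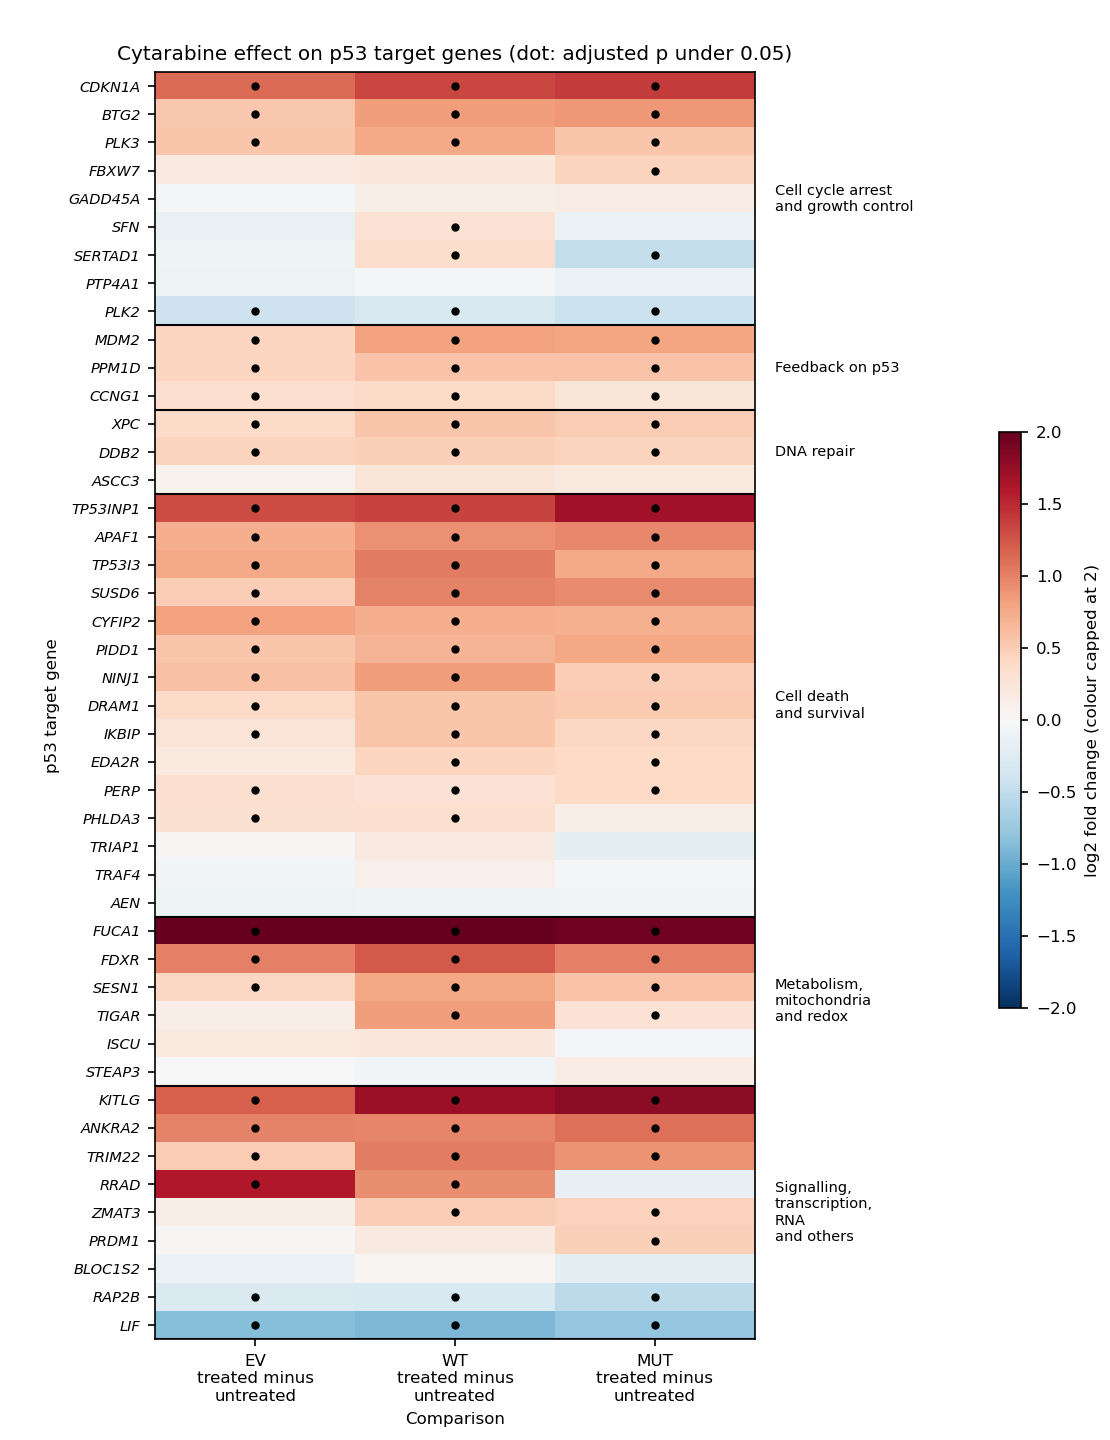
Heatmap of the cytarabine effect on the 45 members (rows, grouped by role) in the EV, WT and MUT lines (columns), coloured by log2 fold change of treated over untreated cells with the colour capped at 2, and a dot where the adjusted p was under 0.05. FUCA1 has the deepest red in each line, LIF the deepest blue, and RRAD goes from 1.60 in EV to -0.17 in MUT.

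**Figure D2:**
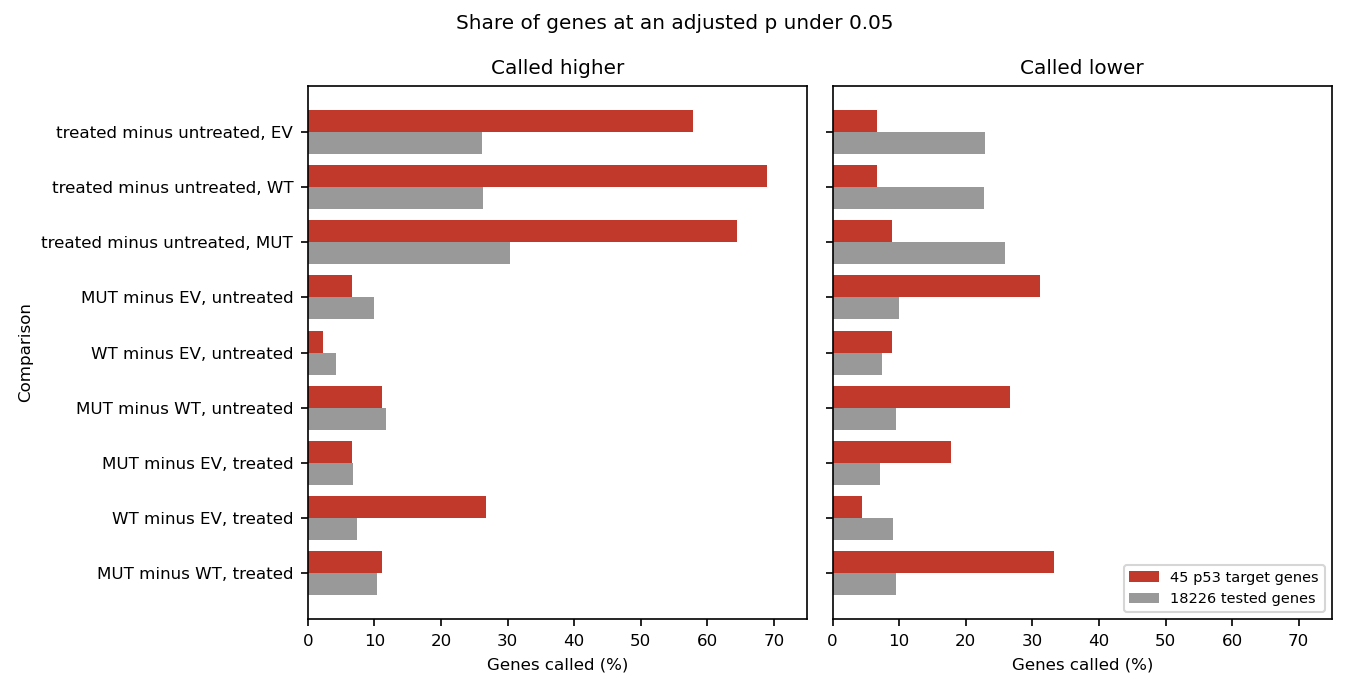
Percent of the 45 members (red bars) and of the 18226 tested genes (grey bars) called higher (left) or lower (right) at an adjusted p under 0.05, for the 3 cytarabine effects and the 6 comparisons between lines. In the cytarabine effects the members' bar is longer than the grey bar for higher calls and shorter for lower calls in each line.

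Among the 9 genes of cell cycle arrest and growth control, 3 rose in EV, 5 in WT and 4 in MUT, and 1, 1 and 2 fell. Of all tested genes 26.1%, 26.3% and 30.4% rose and 22.9%, 22.7% and 25.9% fell, in the same order of lines. The 3 rises in EV were near the share of all genes. The median log2 fold change of the 9 genes was -0.04, 0.28 and 0.14. That of all tested genes was 0.05, 0.03 and 0.05. CDKN1A (chromosome 6, 36676460 to 36687340, plus strand) encodes p21, the cyclin-dependent kinase inhibitor through which p53 halts the cycle. Its untreated libraries held 362, 354 and 359.6 CPM in EV, 423, 404 and 399 CPM in WT and 268, 229 and 259.7 CPM in MUT. The treated libraries held 798, 769 and 801 CPM in EV, 1014, 1031 and 1062 CPM in WT and 660.5, 666 and 663 CPM in MUT. Every treated library lay above every untreated library of any line. The log2 fold change of CDKN1A was 1.14 (SE 0.0607, adjusted p = 9.6e-11) in EV, 1.34 (SE 0.0609, adjusted p = 6.1e-12) in WT and 1.39 (SE 0.0612, adjusted p = 6.5e-12) in MUT. An antisense RNA, DINOL, overlaps the gene on the opposite strand and its listed level also went up, from a mean of 4.09 to 13.6 CPM in WT, and whether the authors counted reads by strand is not given in the sources used here. In all, 23 of the 45 members overlap another listed gene, 22 of them on the opposite strand.

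BTG2 (chromosome 1, 203305491 to 203309603, plus strand), an antiproliferative cofactor of mRNA deadenylation, also rose in all 3 lines. It went from 66.9, 64.8 and 65.9 CPM to 94.9, 93.3 and 100.03 CPM in EV, with a change on the log2 scale of 0.54 (SE 0.0676, adjusted p = 2.0e-06). In WT its libraries moved from 55, 59.5 and 58.5 to 100.48, 104 and 105 CPM (log2 fold change 0.84, SE 0.0677, adjusted p = 8.7e-09), and in MUT from 47.3, 39.9 and 47.3 to 80.5, 85.8 and 79.6 CPM (log2 fold change 0.87, SE 0.0687, adjusted p = 4.4e-09). The untreated and treated libraries did not overlap in any of the lines. PLK3, a polo-like kinase of the stress response, rose by 0.55 on the log2 scale in EV, 0.75 in WT and 0.56 in MUT. FBXW7, the substrate receptor of a ubiquitin ligase for cyclin E and MYC, passed the threshold in MUT (log2 fold change 0.45, SE 0.0987, adjusted p = 7.1e-04) and gave 0.18 (adjusted p = 0.143) in EV and 0.22 (adjusted p = 0.07) in WT. SFN (chromosome 1, 26863138 to 26864458, plus strand), a checkpoint adaptor that was the most abundant member per length at 259 CPM per kb of exon over the untreated libraries, rose in WT, from 339, 334 and 323 to 399, 400.4 and 412 CPM (log2 fold change 0.28, SE 0.0868, adjusted p = 0.0111). In EV its libraries read 319, 311 and 308 CPM untreated and 293, 277 and 279 CPM treated, and in MUT 351, 318 and 450.0 CPM untreated and 338, 335 and 354 CPM treated. Neither line passed the threshold for SFN (adjusted p = 0.19 and 0.232), and the difference of its effect between WT and EV did not pass either (adjusted p = 0.226). With the authors' factors the SFN call in WT was lost (adjusted p = 0.0643).

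PLK2 (chromosome 5, 58453982 to 58460261, minus strand), a polo-like kinase, fell in all 3 lines and is one of the genes with a p53 decamer in its promoter window. Its libraries went from 146, 158 and 138 to 104, 113 and 114 CPM in EV, from 127, 134 and 138 to 103, 112 and 103 CPM in WT and from 152, 148 and 162 to 108, 123 and 112 CPM in MUT. The log2 fold changes of PLK2 were -0.42 (SE 0.0716, adjusted p = 8.3e-05), -0.33 (SE 0.0716, adjusted p = 8.1e-04) and -0.43 (SE 0.0714, adjusted p = 4.0e-05) in that order. GADD45A, a damage-induced inhibitor of cell cycle kinases, and PTP4A1, a phosphatase, passed the threshold in no line, with log2 fold changes of GADD45A between -0.04 and 0.14 and of PTP4A1 between -0.12 and -0.02. GADD45A held 184.2, 91.5 and 187.6 CPM in untreated MUT and 157.8, 171.3 and 183.8 CPM in treated MUT. Replicate 2 of untreated MUT thus lay below every treated MUT library and the others lay above. PTP4A1 shares its strand and position with the listed gene AL135905.2, and their summed counts did not pass the threshold either.

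**Figure D3:**
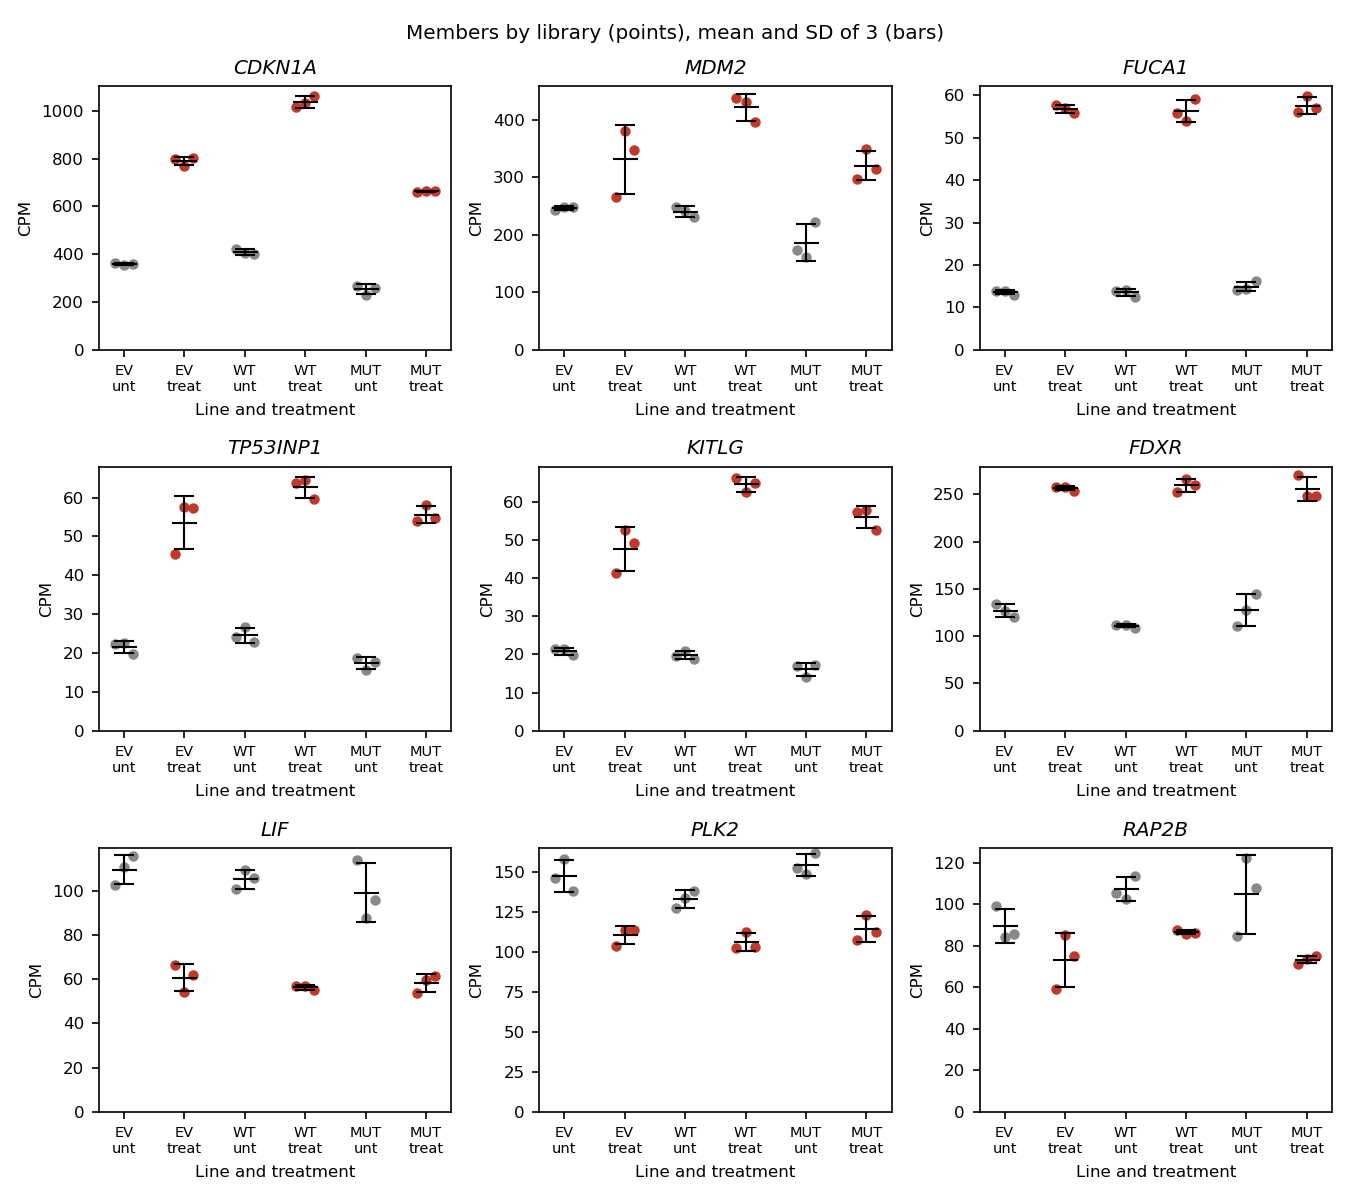
CPM of CDKN1A, MDM2, FUCA1, TP53INP1, KITLG, FDXR, LIF, PLK2 and RAP2B in each of the 18 libraries (points), with the mean and SD of the 3 libraries of a group (bars), by line and treatment. Red treated points lie above the grey untreated points in the upper panels (CDKN1A to FDXR) and below them for LIF and PLK2, and they overlap for RAP2B in EV.

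The 3 genes that feed back on p53 rose in all 3 lines, against 18.9% of all tested genes. MDM2 (chromosome 12, 68808176 to 68850687, plus strand) went from 243, 248 and 249 to 265, 381 and 348 CPM in EV, from 249, 242 and 230.3 to 438, 431 and 396 CPM in WT and from 174, 162 and 222 to 298, 349 and 315 CPM in MUT. Treated and untreated MDM2 libraries did not overlap in any line, but replicate 1 of treated EV, at 265 CPM, lay nearer to the untreated EV libraries than to the other treated ones. The log2 fold change of MDM2 was 0.43 (SE 0.115, adjusted p = 0.00448) in EV, 0.81 (SE 0.115, adjusted p = 9.7e-06) in WT and 0.78 (SE 0.115, adjusted p = 1.1e-05) in MUT. The difference of the MDM2 effect between WT and EV was 0.38 (SE 0.162, adjusted p = 0.444), short of the threshold. PPM1D, the phosphatase WIP1, had log2 rises of 0.43 (EV), 0.57 (WT) and 0.56 (MUT). CCNG1, cyclin G1, which recruits a phosphatase to MDM2, rose by 0.34, 0.38 and 0.25. The CCNG1 call in MUT held in 18 of all 27 settings. It was lost with RLE or the authors' factors, no filter, only the groups compared and DESeq2, and in some fits without 1 library.

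Of the 3 DNA repair genes, 2 rose in every line, against 18.9% of all tested genes. XPC (chromosome 3, 14145147 to 14178784, minus strand), which recognises damaged DNA in nucleotide excision repair, read 86.8, 87.2 and 89.8 CPM untreated and 115, 107 and 123 CPM treated in EV. Its WT libraries read 80.2, 83.8 and 89.4 CPM untreated and 128, 125 and 120.2 CPM treated and its MUT libraries 70.3, 64.2 and 52.3 CPM untreated and 86.6, 89.7 and 89.3 CPM treated. XPC rose by 0.39, 0.56 and 0.51 on the log2 scale, and the treated MUT libraries overlapped the untreated EV libraries. DDB2, the other damage sensor of that pathway and the gene with the paired decamer, rose by nearly the same amount in each line, 0.45 (SE 0.0589, adjusted p = 3.8e-06) in EV, 0.47 (SE 0.0584, adjusted p = 2.0e-06) in WT and 0.45 (SE 0.0584, adjusted p = 2.3e-06) in MUT. ASCC3, a helicase of alkylation repair, passed in none, with values of 0.06, 0.25 and 0.19.

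Among the 15 genes of cell death and survival, 11 rose in EV, 12 in WT and 11 in MUT, and none fell in any line. Of all tested genes 26.1%, 26.3% and 30.4% rose and 22.9%, 22.7% and 25.9% fell. TP53INP1 (chromosome 8, 94925972 to 94949412, minus strand), a stress protein that promotes p53-dependent death and autophagy, changed most in this group. Its libraries went from 22.3, 22.7 and 19.8 to 45.6, 57.7 and 57.4 CPM in EV, from 24, 26.7 and 22.9 to 63.8, 64.6 and 59.5 CPM in WT and from 18.7, 15.6 and 17.8 to 53.9, 58.2 and 54.8 CPM in MUT. Treated and untreated libraries were separate in each line. The log2 fold change of TP53INP1 was 1.31 (SE 0.0959, adjusted p = 2.9e-09) in EV, 1.35 (SE 0.094, adjusted p = 1.3e-09) in WT and 1.68 (SE 0.0971, adjusted p = 1.1e-10) in MUT. The gene lies within NDUFAF6 as listed, and how shared positions were counted is not given in the sources used here. APAF1, the scaffold of the apoptosome, had log2 rises of 0.73 (EV), 0.91 (WT) and 0.97 (MUT). IKBIP, whose start lies head to head with that of APAF1 on chromosome 12 with 26 bases between them, rose by 0.26, 0.55 and 0.42. The IKBIP call in EV held in 4 of the 18 fits without 1 library and was lost with the authors' factors or no filter, with adjusted p up to 0.167.

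TP53I3 (chromosome 2, 24077433 to 24085862, minus strand), a quinone oxidoreductase linked to oxidative stress in p53-dependent death, read 63.9, 68.4 and 65.7 CPM untreated and 122, 108 and 106 CPM treated in EV. It read 70.4, 75.9 and 75 CPM untreated and 148, 153 and 154 CPM treated in WT, and 53.6, 52 and 55.5 CPM untreated and 90.7, 95 and 86 CPM treated in MUT. The log2 fold changes of TP53I3 were 0.76 (SE 0.0665, adjusted p = 2.6e-08), 1.04 (SE 0.066, adjusted p = 4.3e-10) and 0.75 (SE 0.0669, adjusted p = 1.9e-08), and treated WT lay above both other lines. SUSD6 (chromosome 14, 69611596 to 69715143, plus strand), a membrane protein, went from 34.6, 35.4 and 39.4 to 47.1, 54.7 and 51.7 CPM in EV (log2 fold change 0.49, SE 0.128, adjusted p = 0.00364). The SUSD6 effect was 1.00 (SE 0.126, adjusted p = 2.5e-06) in WT, from 38.8, 36 and 36.9 to 75.1, 80 and 67.8 CPM, and 0.94 (SE 0.13, adjusted p = 5.3e-06) in MUT, from 26.6, 32.6 and 18.3 to 50.1, 50.3 and 48.1 CPM. None of the 3 differences of the SUSD6 effect between lines passed the threshold, the largest being 0.51 between WT and EV (adjusted p = 0.34). NINJ1 (chromosome 9, 93121489 to 93134289, minus strand), which ruptures the plasma membrane of dying cells, held 86.1, 78.8 and 82.1 CPM untreated and 118, 124 and 128 CPM treated in EV, 67.8, 69.8 and 67.7 CPM untreated and 126, 119.8 and 121 CPM treated in WT, and 65.2, 56.1 and 78.8 CPM untreated and 90.9, 88.7 and 101 CPM treated in MUT. NINJ1 rose by 0.58, 0.84 and 0.48 on the log2 scale, with no overlap between treatments within a line.

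EDA2R (chromosome X, 66595637 to 66639299, minus strand), a member of the TNF receptor superfamily that binds ectodysplasin, rose in WT (log2 fold change 0.43, SE 0.0861, adjusted p = 3.7e-04) and MUT (log2 fold change 0.40, SE 0.0875, adjusted p = 6.6e-04). In EV it gave 0.19 (adjusted p = 0.0751), and its EV libraries held 47.3, 45.2 and 49.6 CPM untreated and 49.6, 58.1 and 54.4 CPM treated. The WT libraries went from 37.8, 38.7 and 40.5 to 53.4, 54.9 and 49.3 CPM and the MUT libraries from 34.8, 33.8 and 29.3 to 38.2, 47.5 and 43.6 CPM, and the untreated EV libraries lay above the untreated libraries of both other lines. The effects of EDA2R did not differ between lines at the threshold (adjusted p of 0.419, 0.536 and 0.943). CYFIP2, a subunit of the WAVE complex, rose by 0.81, 0.73 and 0.71. PIDD1, the scaffold that activates caspase-2, rose by 0.55, 0.68 and 0.77, and DRAM1, a lysosomal protein of autophagy, by 0.39, 0.56 and 0.53. PERP, a desmosomal membrane protein, rose by 0.32, 0.29 and 0.39. PHLDA3, an inhibitor of AKT at the membrane, rose in EV (0.30) and WT (0.31) and gave 0.12 (adjusted p = 0.257) in MUT. The calls of PHLDA3 in EV and of PERP in EV and WT were lost with the authors' factors. AEN, a nuclease of apoptotic cells, TRIAP1, a mitochondrial survival protein, and TRAF4, a signalling adaptor, passed in no line, and all 9 of their log2 fold changes lay between -0.20 and 0.18.

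In the metabolic group 6 genes were tested, of which 3 rose in EV, 4 in WT and 4 in MUT, and none fell. The shares of all tested genes were 26.1%, 26.3% and 30.4% higher and 22.9%, 22.7% and 25.9% lower. FUCA1 (chromosome 1, 23845077 to 23868295, minus strand), a lysosomal enzyme that removes fucose from glycoproteins, had the largest rise of any member in each line. Its libraries held 13.9, 14 and 13 CPM untreated and 57.7, 57 and 55.8 CPM treated in EV. They held 13.8, 14.2 and 12.5 CPM untreated and 55.9, 54 and 59.1 CPM treated in WT, and 14.1, 14.4 and 16.2 CPM untreated and 56.1, 59.9 and 56.9 CPM treated in MUT. The log2 fold change of FUCA1 was 2.06 (SE 0.0751, adjusted p = 1.2e-12) in EV, 2.06 (SE 0.0743, adjusted p = 3.4e-13) in WT and 1.95 (SE 0.0739, adjusted p = 8.5e-13) in MUT, and the lines differed in neither treatment at the threshold. FDXR, a mitochondrial reductase for iron-sulfur cluster and steroid synthesis, rose by 1.01, 1.22 and 1.00. SESN1, a sestrin that restrains mTORC1, rose by 0.41, 0.78 and 0.58. ISCU, the iron-sulfur cluster scaffold, gave 0.20, 0.21 and -0.03 and passed in none. STEAP3 (chromosome 2, 119223831 to 119265653, plus strand), an endosomal ferrireductase, also passed in none, with 91.7, 87.1 and 91.9 CPM untreated and 90.4, 95.9 and 86.9 CPM treated in EV and log2 fold changes of 0.01, -0.06 and 0.16 in the 3 lines.

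Among the 9 members of signalling, transcription and RNA control, 4 rose in EV, 5 in WT and 5 in MUT, and 2 fell in each line. Of all tested genes 26.1%, 26.3% and 30.4% rose. The 2 that fell were near the share of all tested genes, 22.9%, 22.7% and 25.9%. KITLG (chromosome 12, 88492793 to 88580852, minus strand), the ligand of the receptor KIT, went from 21.3, 21.4 and 19.8 to 41.3, 52.5 and 49.3 CPM in EV, from 19.6, 20.9 and 18.8 to 66.3, 62.5 and 64.8 CPM in WT and from 17, 14.2 and 17.2 to 57.4, 57.8 and 52.6 CPM in MUT. Treated libraries stood above untreated ones in every line. The log2 fold change of KITLG was 1.19 (SE 0.0908, adjusted p = 4.8e-09) in EV, 1.71 (SE 0.0901, adjusted p = 4.3e-11) in WT and 1.79 (SE 0.0921, adjusted p = 2.9e-11) in MUT, and the difference between MUT and EV was 0.60 (SE 0.129, adjusted p = 0.055), just short of the threshold. ANKRA2, an ankyrin repeat protein that binds histone deacetylases, rose by 0.99, 0.98 and 1.10. TRIM22 (chromosome 11, 5689689 to 5737090, plus strand), an antiviral ubiquitin ligase, rose from 23.7, 22.2 and 26.2 to 32.9, 35.6 and 33.5 CPM in EV (log2 fold change 0.50, SE 0.0945, adjusted p = 2.1e-04), from 12.6, 11.6 and 11.6 to 25.7, 24.1 and 22.9 CPM in WT (log2 fold change 1.02, SE 0.0995, adjusted p = 1.0e-07) and from 17.6, 15 and 16.4 to 26.4, 33.5 and 31.6 CPM in MUT (log2 fold change 0.90, SE 0.0966, adjusted p = 2.3e-07). The gene overlaps TRIM5 as listed. ZMAT3, an RNA-binding regulator of splicing, rose in WT (0.49) and MUT (0.47) and gave 0.13 (adjusted p = 0.173) in EV. BLOC1S2, a subunit of a lysosomal trafficking complex, passed in none (-0.12, 0.04 and -0.19).

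LIF and RAP2B were the members of this group that fell. LIF (chromosome 22, 30240447 to 30246852, minus strand), a cytokine of the interleukin-6 family, went from 103, 111 and 116 to 66.3, 54.1 and 62 CPM in EV, from 101, 109 and 106 to 57, 57.1 and 55.1 CPM in WT and from 114, 87.9 and 95.8 to 53.6, 59.8 and 61.7 CPM in MUT. All treated LIF libraries lay below all untreated ones of their line, and the log2 fold changes were -0.85 (SE 0.0913, adjusted p = 3.3e-07), -0.90 (SE 0.0914, adjusted p = 1.6e-07) and -0.77 (SE 0.0911, adjusted p = 7.9e-07). RAP2B (chromosome 3, 153162270 to 153170621, plus strand), a small GTPase of the RAS family, read 99.1, 84.2 and 85.6 CPM untreated and 59.4, 85.3 and 75.1 CPM treated in EV, 106, 102 and 114 CPM untreated and 87.6, 85.8 and 86 CPM treated in WT, and 84.5, 122 and 108 CPM untreated and 71.4, 73.4 and 74.8 CPM treated in MUT. Treated and untreated libraries overlapped in EV and not in WT or MUT. RAP2B changed by -0.29 (SE 0.119, adjusted p = 0.0483) in EV, -0.31 (SE 0.118, adjusted p = 0.035) in WT and -0.52 (SE 0.118, adjusted p = 0.00105) in MUT. The value in EV was -0.16 without replicate 1 of treated EV and then missed the threshold, and with 1 library left out the RAP2B call held in 4 of 18 fits for EV and 13 for WT. PRDM1 (chromosome 6, 106086320 to 106109940, plus strand), the transcriptional repressor BLIMP1 and the least abundant member per length at 0.568 CPM per kb, rose in MUT (log2 fold change 0.47, SE 0.199, adjusted p = 0.0488), where its libraries went from 5.52, 4.65 and 3.08 to 5.98, 6.22 and 6.28 CPM. This call of PRDM1 held in 3 of the 18 fits without 1 library and in 6 of all 27 settings, and was lost with RLE or the authors' factors, no filter, only the groups compared, the replicate block and DESeq2. In EV and WT it gave 0.02 (adjusted p = 0.936) and 0.18 (adjusted p = 0.495).

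Among the genes that act on p53 more fell than rose. Of 22 listed regulators 21 were tested, and 3 rose in EV, 4 in WT and 4 in MUT (26.1%, 26.3% and 30.4% of all tested genes), while 10, 8 and 8 fell (22.9%, 22.7% and 25.9% of all tested genes). The median log2 fold change of the list was -0.16, -0.21 and -0.11, where that of all tested genes was 0.05, 0.03 and 0.05. In log2 units, and in the order EV, WT, MUT, the acetyltransferase KAT5 fell by 1.11, 1.32 and 1.30, the deubiquitinase USP7 by 0.76, 0.73 and 0.96, and the kinase CHEK1 by 0.54, 0.47 and 0.46. ATM rose by 0.43, 0.34 and 0.76, and TP73, a p53 family member, by 0.71, 0.99 and 1.18. ATR, CHEK2 and MDM4 passed the threshold in no line. Of 9 further p53 targets outside the member list, 5 rose in EV, 6 in WT and 6 in MUT, and none fell. Against these, 26.1%, 26.3% and 30.4% of all tested genes rose and 22.9%, 22.7% and 25.9% fell. GDF15, a secreted stress cytokine, gave 3.03, 4.21 and 3.89, and RRM2B, the p53-inducible ribonucleotide reductase subunit, 0.84, 0.91 and 1.12. The apoptosis genes BAX, BBC3 and PMAIP1 passed in no line, whereas FAS, a death receptor, rose by 0.57, 1.04 and 0.86.

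Whether the cytarabine effect itself differed between lines was tested by the interaction terms, and 1 of the 45 members passed in each of the 3 comparisons. The 3 effects share libraries pairwise and are therefore given side by side. RRAD passed between MUT and EV (1 of 45 members in the lower direction against 0.0604% of all tested genes, and 0 higher against 0.154%). SERTAD1 passed between MUT and WT (1 lower against 0.494%, and 0 higher against 0.51%). TIGAR passed between WT and EV (1 higher against 0.143%, and 0 lower against 0.143%). At an unadjusted p under 0.05, 10, 8 and 13 of the 45 members passed in these 3 comparisons, against 15.8%, 15.4% and 9.96% of all tested genes, so that the 8 between MUT and WT were near the share of all genes. DESeq2 called 3, 7 and 2 members, against 3.04%, 4.41% and 0.757% of all tested genes. Without replicate 2 of untreated MUT, 8 members passed in the lower direction between MUT and WT, and 2 in the higher direction between MUT and EV. Between WT and EV the 1 higher member became 5 without replicate 3 of untreated MUT and 6 with only the groups compared, against 0.509% and 0.936% of all tested genes in those fits.

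RRAD (chromosome 16, 66921679 to 66925645, minus strand) encodes a small GTPase that inhibits voltage-dependent calcium channels. Its libraries held 1.40, 1.75 and 1.84 CPM untreated and 5.82, 4.62 and 4.70 CPM treated in EV, and 1.32, 1.32 and 1.43 CPM untreated and 2.88, 2.54 and 2.32 CPM treated in WT. In MUT they held 7.77, 6.60 and 10.5 CPM untreated and 7.56, 7.52 and 7.06 CPM treated. The untreated MUT libraries were above every EV and WT library of either treatment, and the treated MUT libraries lay within the range of the untreated ones. The cytarabine effect on RRAD was 1.60 (SE 0.193, adjusted p = 1.4e-06) in EV, 0.92 (SE 0.204, adjusted p = 9.0e-04) in WT and -0.17 (SE 0.163, adjusted p = 0.401) in MUT. The difference between MUT and EV was -1.76 (SE 0.253, adjusted p = 0.00444), that between MUT and WT -1.09 (SE 0.261, adjusted p = 0.0504) and that between WT and EV -0.67 (SE 0.284, adjusted p = 0.437). RRAD had between 24 and 183 counts per library, the lowest of the members. In a fit of the 4 groups compared alone, its difference between MUT and EV was -1.78 with an adjusted p of 0.0632.

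SERTAD1 (chromosome 19, 40421592 to 40426026, minus strand), a coactivator that binds CDK4 and stimulates E2F-dependent transcription, was at 31.7, 34.6 and 33.7 CPM untreated and 31.7, 31.4 and 30.7 CPM treated in EV. In WT it went up from 26.7, 30.8 and 32.2 to 37.3, 39.5 and 37.9 CPM, and in MUT it went down from 29.8, 31.9 and 40.4 to 24.8, 24.6 and 23.7 CPM. The libraries of the 2 treatments did not overlap in WT or in MUT, and after treatment the order of the lines was WT, EV, MUT with no overlap. The SERTAD1 effect was -0.09 (SE 0.0951, adjusted p = 0.45) in EV, 0.35 (SE 0.0942, adjusted p = 0.00403) in WT and -0.48 (SE 0.0954, adjusted p = 2.6e-04) in MUT. The difference between MUT and WT was -0.84 (SE 0.134, adjusted p = 0.00586) and passed in all 27 settings tried, whereas those between MUT and EV (-0.39, adjusted p = 0.18) and WT and EV (0.45, adjusted p = 0.245) did not pass.

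TIGAR (chromosome 12, 4307763 to 4354594, plus strand), a phosphatase that diverts glucose from glycolysis, read 79.6, 67.6 and 81.4 CPM untreated and 79.7, 80.4 and 89.5 CPM treated in EV. Its WT libraries went from 51.9, 50.7 and 52 to 98, 89.5 and 88.5 CPM and its MUT libraries from 54.5, 44 and 60.1 to 59.8, 70.8 and 62.6 CPM. Untreated WT lay below untreated EV without overlap, and after treatment the libraries of both lines overlapped. The TIGAR effect was 0.13 (SE 0.0974, adjusted p = 0.298) in EV, 0.84 (SE 0.0984, adjusted p = 1.0e-06) in WT and 0.28 (SE 0.0988, adjusted p = 0.0202) in MUT, and its difference between WT and EV was 0.71 (SE 0.138, adjusted p = 0.0375). A protein-coding gene listed as AC008012.1 spans TIGAR on the same strand, so reads of the shared exons can be split between them. AC008012.1 was itself higher in WT, with a mean of 48.6 CPM untreated and 67.8 CPM treated against 15.9 and 28.7 CPM in EV. With the 2 genes summed, an alternative chosen after the data were seen, the libraries read 89.3, 89.2 and 97.7 CPM in untreated EV and 103, 95.5 and 102 CPM in untreated WT. The difference of effect between WT and EV was then 0.39 (SE 0.0951, adjusted p = 0.115), and the untreated comparison of WT with EV turned from -0.56 to 0.12 (SE 0.0677, adjusted p = 0.29). The summed effect in EV was 0.28 (SE 0.0676, adjusted p = 0.00187), past the threshold. In treated cells the summed libraries read 112, 105 and 118.5 CPM in EV and 164, 159 and 156 CPM in WT. The treated difference of WT from EV was then 0.51 (SE 0.0669, adjusted p = 2.7e-05). Summed, untreated MUT differed from untreated WT by -0.60 (SE 0.0684, adjusted p = 5.1e-06), a comparison in which TIGAR alone was not called. The summed difference of treated MUT from treated WT was -0.91 (SE 0.0674, adjusted p = 2.0e-08). Leaving out 1 library ended the TIGAR call between WT and EV in 12 of 18 cases, with values from 0.66 to 0.77 on the log2 scale. The call of the TIGAR effect in MUT was lost with the authors' factors and with only the groups compared.

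**Figure D4:**
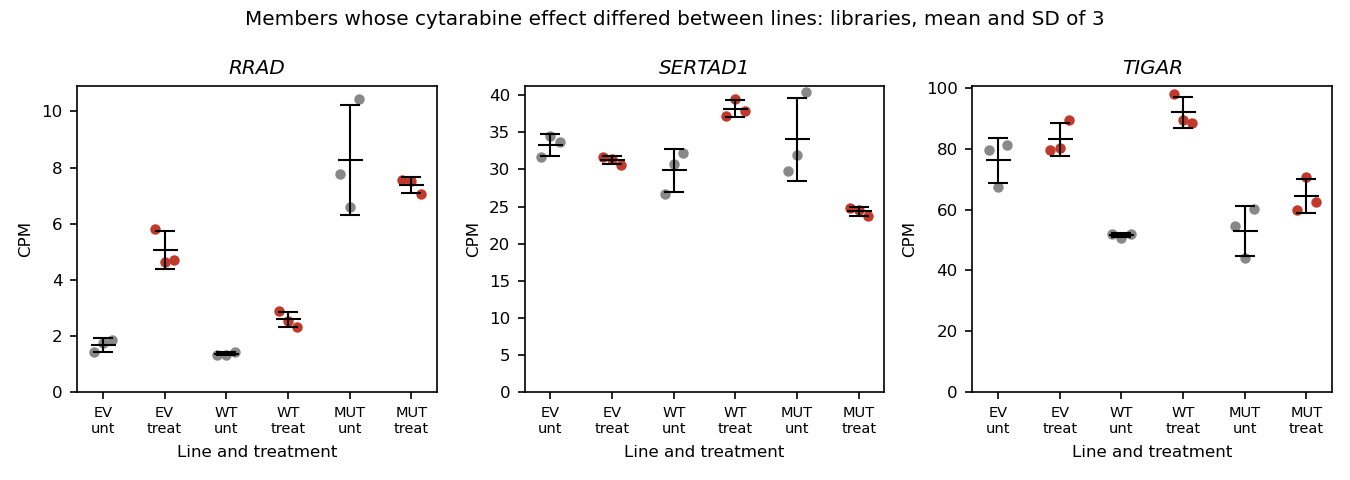
CPM of RRAD, SERTAD1 and TIGAR in each of the 18 libraries (points), with the mean and SD of 3 libraries, by line and treatment. RRAD is high in MUT before treatment, and SERTAD1 parts after treatment with WT highest and MUT lowest. TIGAR, without the counts of AC008012.1, starts lower in WT and MUT than in EV.

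Before treatment the MUT line held many of the p53 targets at a lower level. Against EV, 14 members were lower in untreated MUT (against 10% of all tested genes) and 3 were higher (9.88%). Against WT, 12 were lower (9.54%) and 5 were higher (11.7%). In 12 of the 45 members (26.7%) all 3 untreated MUT libraries lay below all 6 untreated libraries of the other lines, against 7.63% of all tested genes. These were CDKN1A, BTG2, MDM2, PPM1D, XPC, TP53INP1, AEN, EDA2R, TP53I3, SUSD6, KITLG and ZMAT3. CDKN1A was lower by 0.51 on the log2 scale than in EV (SE 0.0605, adjusted p = 1.5e-05) and by 0.69 than in WT (SE 0.0605, adjusted p = 1.7e-07). BTG2 gave -0.55 (SE 0.0693, adjusted p = 2.5e-05) against EV and -0.36 (SE 0.0693, adjusted p = 0.00103) against WT. XPC gave -0.50 and -0.44, EDA2R -0.54 and -0.26, SUSD6 -0.50 and -0.53, and MDM2 -0.41 and -0.37, each past the threshold in both comparisons. The call of EDA2R against WT held in 6 of the 18 fits without 1 library and was lost with RLE or the authors' factors, no filter, only the groups compared and DESeq2, and that of MDM2 held in 14 of the 18 against either line. With 1 library left out, 10 of the 17 calls against EV and 11 of the 17 against WT held in all 18 fits. These values rest on the untreated MUT libraries, which varied most, and the counts of lower members stayed between 11 and 15 against EV and between 9 and 13 against WT when any single library was left out. With only the groups compared in the fit, they were 7 and 6, against 3.24% and 3.19% of all tested genes. In these fits the calls of MDM2 and SUSD6 were lost against either line, and those of BTG2 and XPC were lost against WT.

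RRAD and STEAP3 were the 2 members whose untreated MUT libraries lay above all others, against 8.35% of all tested genes. RRAD was higher in MUT than in EV by 2.31 (SE 0.19, adjusted p = 1.5e-07) and than in WT by 2.60 (SE 0.192, adjusted p = 1.7e-08), the largest difference between lines among the members. STEAP3 libraries held 102, 115 and 104 CPM in untreated MUT and 84.2, 86.4 and 89.8 CPM in untreated WT, and the log2 differences were 0.25 (SE 0.0823, adjusted p = 0.0394) against EV and 0.31 (SE 0.0822, adjusted p = 0.012) against WT. PRDM1 read 5.52, 4.65 and 3.08 CPM in untreated MUT and 2.11, 3.28 and 3.24 CPM in untreated WT, a difference of 0.62 (SE 0.211, adjusted p = 0.0407), and 1 MUT library lay among those of WT. With 1 library left out, the call held in 10 of 18 fits for STEAP3 against EV and in 11 for PRDM1 against WT. The counts of higher members were small and moved with single libraries, from 1 without any 1 library of untreated EV to 5 without replicate 1 or 2 of untreated MUT in the comparison with EV. In that with WT they fell to 2 without replicate 1 of untreated WT and to 3 without replicate 3 of untreated WT, treated WT or treated MUT.

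How many members differed between untreated WT and EV depended on the fit. With all 18 libraries 5 were called, and with only the groups compared 9 were higher and 13 lower, against 15% and 16.5% of all tested genes, which is more members than such fits called between untreated MUT and either line. In 11 members all WT libraries lay above all EV libraries (18.7% of all tested genes) and in 12 below (21.5%). With all 18 libraries CDKN1A was the 1 member called higher in WT (4.3% of all tested genes), at 0.19 (SE 0.0601, adjusted p = 0.0482), and 4 were lower (7.36%). TRIM22 was lower in WT by 1.01 on the log2 scale (SE 0.1, adjusted p = 1.3e-06), with no overlap between libraries. TIGAR, EDA2R and PPM1D were the others, at -0.56, -0.28 and -0.18, with the reversal of TIGAR given above. The call for CDKN1A was lost in 14 of the 18 fits without 1 library, that for EDA2R held in 8 of them and that for PPM1D in 5, and PPM1D also missed the threshold with no filter and with the replicate block. The split of 1 higher and 4 lower became 0 and 4 when the libraries were scaled by the RLE factors or by the authors' factors. In these fits the count of lower members ranged from 2, as without any 1 of the untreated EV or WT libraries, to 8 without replicate 3 of untreated MUT.

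After cytarabine WT stood highest and MUT lowest, each for a minority of the members, in larger shares than among all tested genes. In 16 of the 45 members (35.6%) all treated WT libraries lay above all treated libraries of the other lines, against 10.6% of all tested genes. In 10 members (22.2%) all treated MUT libraries lay below the others, against 8.5%. CDKN1A, BTG2, SERTAD1, TRIAP1 and TP53I3 did both, so that their order was WT, EV, MUT in every library. The gap between WT and EV was narrow for BTG2 (100.48 against 100.03 CPM) and TRIAP1 (76.4 against 76.2 CPM), and neither was called there. For TRIAP1 the gap between EV and MUT was also narrow (65.7 against 65.5 CPM) and was not called. Against EV, 12 members were higher in treated WT (7.41% of all tested genes) and 2 were lower (9.12%). SUSD6 (log2 difference 0.54, SE 0.124, adjusted p = 0.00539), SFN (log2 difference 0.51, SE 0.0871, adjusted p = 4.4e-04) and TP53I3 (log2 difference 0.44, SE 0.0649, adjusted p = 9.9e-05) were among the higher ones, and RRAD (log2 difference -0.97, SE 0.18, adjusted p = 9.6e-04) and TRIM22 (log2 difference -0.49, SE 0.0936, adjusted p = 0.00124) were the lower ones. With 1 library left out, 8 of the 14 calls held in all 18 fits. The 12 became 7 without replicate 1 or 3 of treated EV or replicate 1 of treated WT, and 6 without replicate 2 of treated WT.

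Treated MUT had 8 members lower than treated EV (7.13% of all tested genes) and 3 higher (6.85%), and 15 lower than treated WT (9.48%) and 5 higher (10.4%). CDKN1A was at -0.25 against EV and -0.64 (SE 0.06, adjusted p = 4.1e-07) against WT. TP53I3 was at -0.30 (SE 0.0653, adjusted p = 0.0042) against EV and -0.75 (SE 0.0652, adjusted p = 2.0e-07) against WT, and its libraries did not overlap between any of the treated lines. NINJ1 gave -0.40 and -0.39, and XPC -0.38 and -0.49. On the higher side, STEAP3 gave 0.39 (SE 0.0816, adjusted p = 0.00315) against EV and 0.52 (SE 0.0818, adjusted p = 1.6e-04) against WT, with treated MUT libraries at 135, 105 and 118 CPM and treated WT libraries at 89.5, 79.6 and 80.7 CPM. RRAD gave 0.55 (SE 0.167, adjusted p = 0.0348) and 1.51 (SE 0.176, adjusted p = 6.6e-06), and PRDM1 0.92 (SE 0.202, adjusted p = 0.00308) against WT. The 8 members lower than EV became 5 without replicate 3 of treated EV or replicate 1 or 3 of treated MUT, and the 3 higher ones ranged from 1, as without any 1 library of treated MUT, to 8 without replicate 3 of untreated MUT. The 5 higher than WT became 3 without replicate 2 or 3 of treated WT or replicate 3 of treated MUT. RRAD against EV held in 12 of the 18 fits. Of the 11 calls against EV 5 held in all 18, and of the 20 against WT 15. The comparisons between lines share libraries with each other and with the cytarabine effects, so they are not independent of one another.

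**Figure D5:**
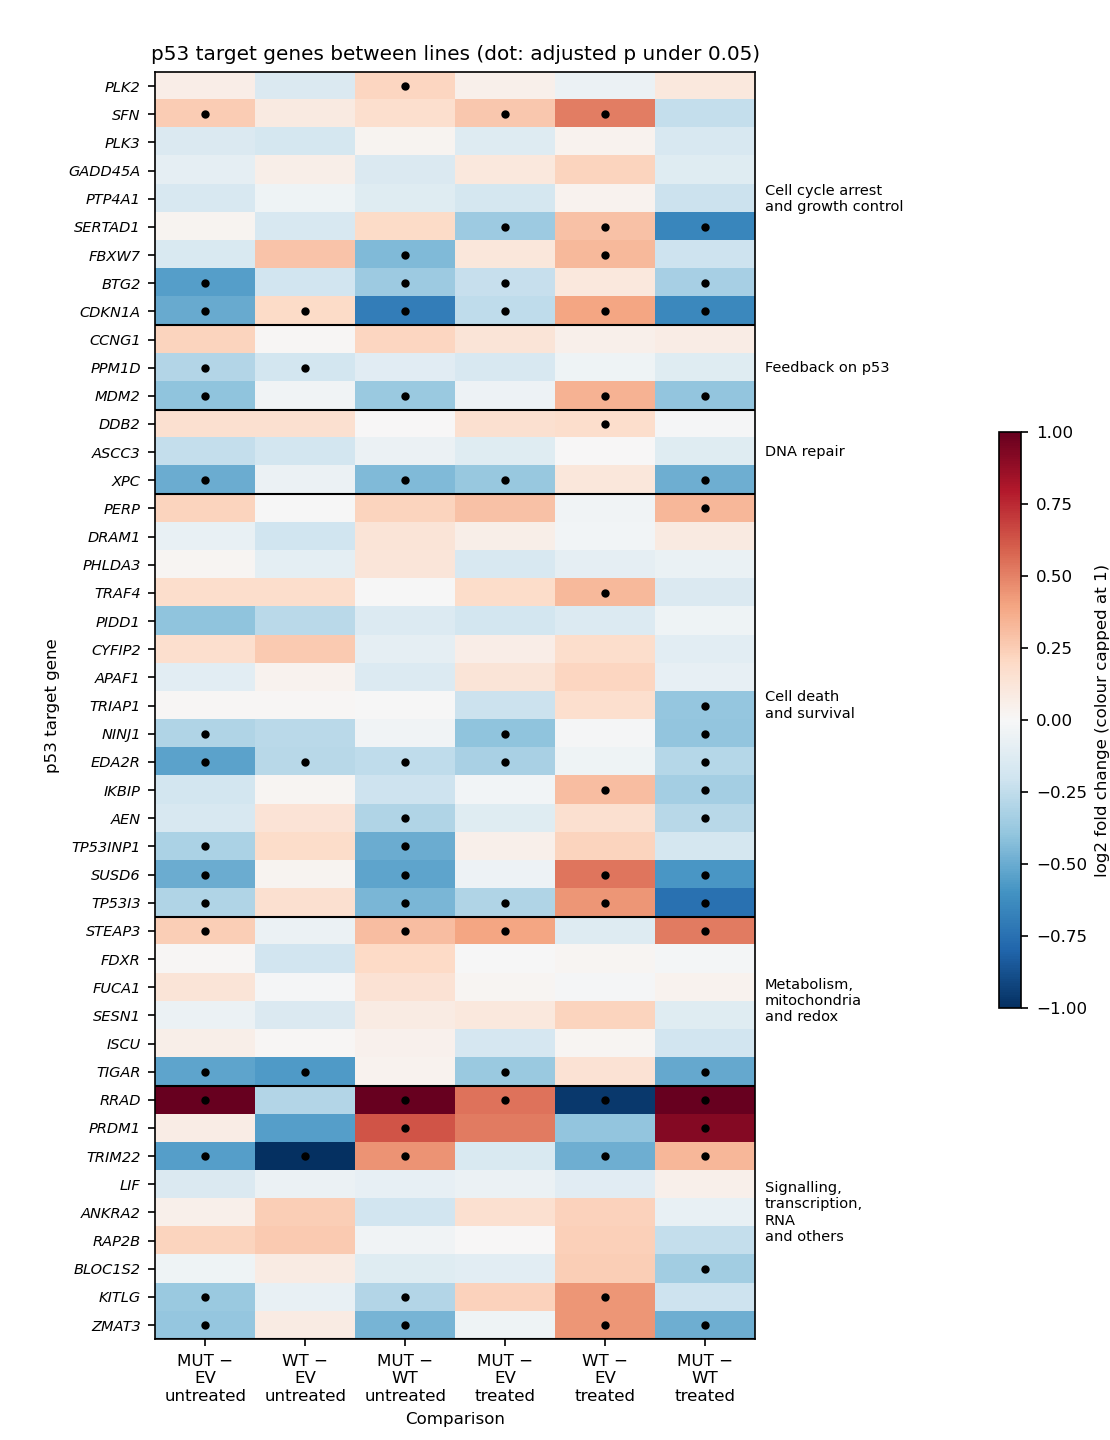
Heatmap of the log2 difference between lines for the 45 members (rows, grouped by role) in 6 comparisons (columns), with the colour capped at 1 and a dot where the adjusted p was under 0.05. RRAD is deep red for untreated MUT against EV at 2.31, and blue prevails among the dotted members of MUT against WT, red among those of treated WT against EV.

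Per length, the members covered a wide range of levels, from 0.568 CPM per kb for PRDM1 to 259 CPM per kb for SFN as means over the untreated libraries. CDKN1A followed SFN with 113 CPM per kb and GADD45A came next with 84.8 CPM per kb. TRIM22 (1.39 CPM per kb), ANKRA2 (1.91 CPM per kb) and RRAD (2.38 CPM per kb) were near the bottom. After treatment CDKN1A in WT reached 346 CPM per kb, above SFN at 309 CPM per kb in the same cells. FUCA1, with the largest rise, went from 6.66 to 27.8 CPM per kb in EV, still below the untreated level of CDKN1A.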

How the data were processed

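Total RNA of the U2OS lines was sequenced. Per the submitters' processing notes, CASAVA and STAR 2.6.1d were used with the hg38 build, while the counting tool and its use of strand are not given in the sources used here. The deposited table held estimated counts per gene (70.4% whole numbers), not normalized. A second deposited table, used only for its scaling, held a signal that is 1 plus the count times a library factor. Estimated counts were rounded and fitted with edgeR 4.0.16 in R 4.3.3 (filterByExpr, TMM scaling, 1 quasi-likelihood model of 6 groups over 18 libraries). F test p-values were adjusted by the Benjamini-Hochberg method over all 18226 tested genes, with a threshold of 0.05. Standard errors are the size of each log2 change over the root of its F statistic. The p-values set each change against the spread between cultures, pooled over the 6 groups. Fitted per group, the coefficient of variation between cultures ran from 0.0397 in untreated WT to 0.214 in untreated MUT. Each construct was carried by a single line, so the comparisons between lines have no replicate at the level of the line. The code was tested on simulated data. CPM uses the TMM-scaled library size, and counting error adds to its SD. Positions are those of the deposited table and overlapped GENCODE v44 for all 45 members. Promoter windows are from RefSeq.

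The members, roles and lists were chosen with earlier results of these data known. A gene of the list of regulators is not reported here. Values in every library are given for CDKN1A, MDM2 and, per comparison, for the members past the threshold with the largest rises and falls. Other members are named by role. Alternatives were RLE, upper quartile and the authors' factors, no filter, a mean of at least 50 counts, DESeq2 1.42.0, only the groups compared, a replicate block, each library left out in turn and overlapping genes summed.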

Additional observations from a re-analysis of the deposited data

Results flagged for a closer look

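The cytarabine effect on RRAD differed between MUT and EV by a test of the difference itself. The log2 difference was -1.76 (SE 0.253, adjusted p = 0.00444) by edgeR's quasi-likelihood test with Benjamini-Hochberg adjustment. All 3 treated EV libraries lay above every untreated EV library, and the treated MUT libraries stayed within the range of the untreated MUT ones.

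SERTAD1 differed in its cytarabine effect between MUT and WT, by -0.84 (SE 0.134, adjusted p = 0.00586) in the same test. All 3 treated WT libraries lay above every untreated WT library, and all 3 treated MUT libraries lay below every untreated MUT library.

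TIGAR differed in its cytarabine effect between WT and EV, by 0.71 (SE 0.138, adjusted p = 0.0375), and with the overlapping gene AC008012.1 added the difference was 0.39 (SE 0.0951, adjusted p = 0.115).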

How the results depend on the processing

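Of 57 results for single genes, 44 kept their direction and their side of the threshold in all 27 settings. The 13 others were calls of CDKN1A, EDA2R, PRDM1, RAP2B, RRAD, SFN, STEAP3, SUSD6, TIGAR and TRIM22, each lost in at least 1 setting. Of these, the calls of RRAD for the difference between MUT and EV and of SUSD6 and TRIM22 between untreated MUT and WT were lost with only the groups compared and held without any 1 library. TIGAR reversed between untreated WT and EV, from -0.56 to 0.12, when the overlapping gene was summed, where the construction adds the other gene's counts. The counts of members called after cytarabine in each line stayed within 1.5 times their value under every alternative other than leaving out a library, and the causes of the changes listed here were not tested.

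For the difference of effect between MUT and EV, 0 members were higher, against 1 with upper quartile factors, 1 with the stricter filter (a mean of 50 counts) and 3 with DESeq2. For 1 lower, which was RRAD, the count was 0 with only the groups compared. It was also 0 with DESeq2, which gave no adjusted p for RRAD in this comparison. Between MUT and WT the 1 lower became 3 with RLE factors, 2 with upper quartile factors, 3 with the stricter filter and 7 with DESeq2. Between WT and EV the 1 higher became 6 with only the groups compared, 2 with DESeq2 and 0 with overlapping genes summed.

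In untreated cells, with only the groups compared, MUT against EV went from 3 higher and 14 lower to 1 and 7, WT against EV from 1 and 4 to 9 and 13, and MUT against WT from 5 and 12 to 1 and 6. The stricter filter gave 5 higher for MUT against EV. WT against EV had 0 higher with RLE factors, the authors' factors or no filter, and 2 lower with no filter, and MUT against WT had 3 higher with no filter. In treated cells only the groups compared gave 5 higher for MUT against EV in place of 3, and 24 lower for MUT against WT in place of 15.

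Leaving out 1 library gave 24 to 27 higher and 2 to 4 lower in EV, 30 to 34 and 2 to 3 in WT, and 26 to 29 and 4 to 8 in MUT. For the differences of effect it gave 0 to 2 higher and 1 to 2 lower (MUT and EV), 0 to 0 and 1 to 8 (MUT and WT, 8 without replicate 2 of untreated MUT) and 0 to 5 and 0 to 0 (WT and EV, 5 without replicate 3 of untreated MUT). In untreated cells it gave 1 to 5 higher and 11 to 15 lower for MUT against EV, 0 to 3 and 2 to 8 for WT against EV, and 2 to 7 and 9 to 13 for MUT against WT. In treated cells the ranges were 1 to 8 and 5 to 11, 6 to 14 and 2 to 2, and 3 to 5 and 12 to 17 in the same order.

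The replicate numbers gave no clear pairing over all groups. Deviations of same-numbered libraries from their group means correlated at over 0.1 in 7 of 45 pairs, all among EV and MUT libraries. Their r across genes ran from -0.176 to 0.352, with a median of -0.016, against 0.003 for libraries with other numbers. Of 18 libraries, 8 correlated best with their own number. Whether some same-numbered libraries share a batch was not tested. With the replicate number as a block, WT against EV in untreated cells had 0 members higher, CDKN1A gave 0.19 there (adjusted p = 0.0511) by edgeR's quasi-likelihood test, and PRDM1 gave 0.62 between untreated MUT and WT (adjusted p = 0.0571). Depth limited RRAD and PRDM1 most, with as few as 24 counts and 43 counts in a library.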
